A study of Mus musculus with 9 samples.

Results

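The genes described here mark the muscular and supporting cells of skin vessels and the small muscles attached to hairs. They were chosen by name: Acta2, Myh11, Tagln and Cnn1 of the smooth muscle contractile apparatus, and Rgs5, Pdgfrb, Cspg4, Notch3 and Kcnj8 of mural cells. All 9 were found among the 29205 genes of the deposited table. RNA of back skin from male BALB/c mice was sequenced in a control group, an IMQ group and a LYS group, with 3 libraries per group. The mice were 6 to 8 weeks old and were kept for 7 days before the experiment, and the backs of all of them, controls included, were shaved and depilated. The IMQ and LYS groups had 62.5 mg of a cream holding 5% imiquimod (IMQ, a Toll-like receptor agonist that gives psoriasis-like lesions) put on the back skin each day for 5 days. The LYS group was also given Longkui Yinxiao soup (LYS, a decoction of Chinese herbs) by gavage. The sample labels give no dose, but the paper states that the sequenced skin came from its high-dose LYS group. Skin was collected on day 13. The labels do not say whether the libraries of a group came from separate mice. The paper states that skin was taken at random from each group (n = 3) and calls the samples biological duplicates, without naming the mice. The p-values therefore measure the spread between these libraries, which may be in part technical.

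Arterioles and venules are wrapped by smooth muscle cells, which shorten by the sliding of actin and myosin filaments, and capillaries are wrapped by pericytes. Both are called mural cells. Endothelial cells recruit mural cells by releasing PDGF-B, which binds the receptor encoded by Pdgfrb, and Notch ligands on the endothelium signal to NOTCH3 on the neighbouring mural cell. In skin, the arrector pili muscles of the hair follicles hold the same contractile proteins as the vessel wall, and alpha smooth muscle actin is also made by myofibroblasts and by the dermal sheath of the follicle. In whole skin, fewer cells of a type and less RNA per cell cannot be told apart.

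The summed counts ranged from 14658645 to 19609878 per library. Levels of a gene across libraries are given as CPM (counts scaled to library size with edgeR's TMM factors), and levels of different genes are compared only as FPKM, which is per kilobase. A gene was called higher or lower when the Benjamini-Hochberg adjusted p of edgeR's quasi-likelihood test over all tested genes was under 0.05 and the absolute log2 fold change was over 0.58. TMM factors were 1.10 to 1.20 in the control group, 0.79 to 0.92 in the IMQ group and 0.98 to 1.10 in the LYS group. Without this scaling the median log2 fold change of all genes between the IMQ and control groups moved from -0.06 to -0.51, that between the LYS and IMQ groups from 0.04 to 0.29, and that between the LYS and control groups from -0.01 to -0.15. Every gene called below kept its direction under both scalings. Several uncalled values between the IMQ and control groups changed sign without the scaling, among the genes named below those of Cnn2, Des, Srf, Hes1 and Higd1b.

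In the IMQ group, 4 of the 8 genes that could be tested were called against the control group. Acta2, Cspg4 and Kcnj8 fell and Notch3 rose. This comparison called 51.0% of all tested genes, 24.1% higher and 26.9% lower, so that a count of 4 of 8 lies at the background. No gene of the 9 was called between the LYS and IMQ groups, where edgeR called 0.0% of 15460 genes. Against the control group, the LYS group had 3 of 9 genes called, Pdgfrb and Notch3 higher and Cspg4 lower, beside 28.0% of all genes (15.1% higher and 12.9% lower).

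**Figure D1:**
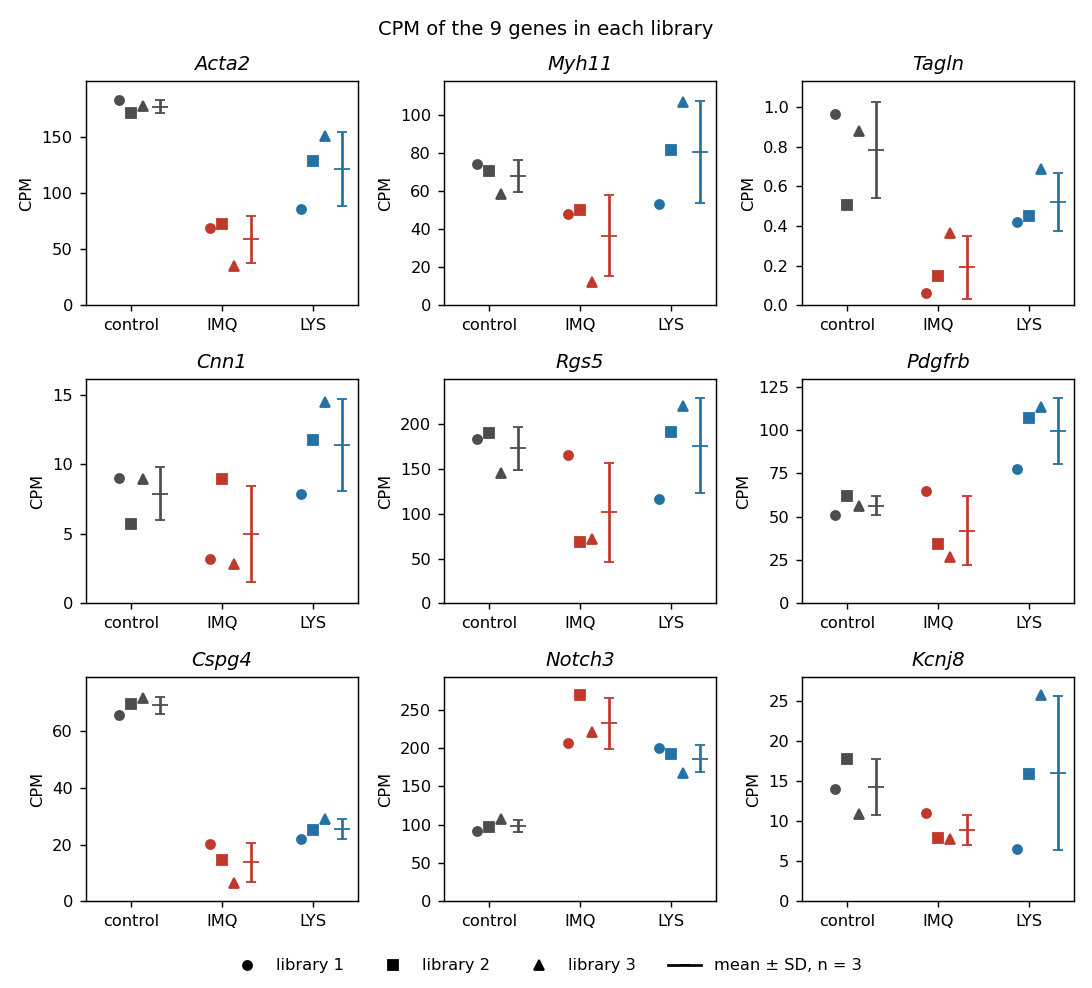
TMM-scaled CPM (vertical axis, starting at 0) of the 9 genes in the control, IMQ and LYS groups; each symbol is a library, and the bar beside it is the mean ± SD of 3 libraries. The control libraries of Acta2 and Cspg4 lie above all other libraries, those of Notch3 lie below all others, and library 1 of the IMQ group is the highest of its group for Rgs5 and Pdgfrb.

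Acta2 (ENSMUSG00000035783) encodes alpha smooth muscle actin, the actin of the contractile filament, and lies on the reverse strand at chr19:34241090-34255590 of GRCm38. It stood at 182, 171 and 177 CPM in the control libraries, at 68.8, 72.2 and 34.8 CPM in the IMQ libraries, and at 85.3, 128 and 150 CPM in the LYS libraries. The 3 groups did not overlap, with the LYS libraries between the others. Acta2 fell in the IMQ group by 1.60 on the log2 scale (SE 0.25, adjusted p = 0.00093 by edgeR), and the control mean was 3.01 times the IMQ mean. The LYS group was a fitted 2.18 times the IMQ level (log2 fold change 1.12, SE 0.33, adjusted p = 0.0721), which was not a call. Against control the LYS value was -0.54 (SE 0.20, adjusted p = 0.0775), also not a call, although it was called once LYS library 3 was left out (-0.72, adjusted p = 0.0282).

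Transcription of contractile genes is known to depend on serum response factor, which binds the CArG box, and on TEF-family factors, which bind the MCAT element. The RefSeq table of GRCm38.p6 had an entry for 6 of the 9 genes, Acta2, Cnn1, Rgs5, Cspg4, Notch3 and Kcnj8. The 250 bases before each start were searched on both strands for the CArG box, for a CArG-like box that allows 1 G or C among its 6 central bases, and for the MCAT element CATTCCT. Only Acta2 among these 6 held a match, with 2 CArG-like boxes and 1 MCAT element. Among 32851 promoters, 1.47% held a CArG box, 8.59% a CArG-like box, 0.67% at least 2 CArG-like boxes and 4.51% an MCAT element. The Acta2 sites are shown because this is the contractile gene that was called. They are given 5′ to 3′ on the reverse strand, with the motif in capitals. The first and second are the CArG-like boxes, which begin 84 and 34 bases before the RefSeq start, and the third is the MCAT element read on the opposite strand, 147 bases before it.
Acta2 CArG-like box at chr19:34255438-34255467: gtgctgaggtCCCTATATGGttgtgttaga
Acta2 CArG-like box at chr19:34255388-34255417: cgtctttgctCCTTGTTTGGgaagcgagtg
Acta2 MCAT element at chr19:34255506-34255528: cagaacagAGGAATGcagtggaa
GENCODE M21 starts this gene farther upstream, so that in its models all 3 sites lie within the first exon of transcript Acta2-201 (34255290 to 34255590). A match describes these letters only, and no binding was measured.

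Myh11 (ENSMUSG00000018830, chr16:14194535-14291372) encodes the smooth muscle myosin heavy chain, the motor that pulls on the actin filament. Its levels were 74.6, 71.0 and 58.8 CPM in the control libraries, 48.0, 50.2 and 12.2 CPM in the IMQ libraries, and 53.5, 81.7 and 107 CPM in the LYS libraries. All IMQ libraries lay below all control and LYS libraries, but IMQ library 3 was far below the other two. The log2 fold change was -0.89 (SE 0.43, adjusted p = 0.105) for IMQ against control, 1.21 (SE 0.52, adjusted p = 0.145) for LYS against IMQ and 0.25 (SE 0.24, adjusted p = 0.454) for LYS against control by edgeR. None was a call. Without IMQ library 3 the first and second values were -0.46 (adjusted p = 0.034 by edgeR, under the threshold on size) and 0.80. By edgeR the first was called without TMM scaling (-1.32, adjusted p = 0.0311), without a filter on low counts (-0.92, adjusted p = 0.0378) and with a replicate block (-1.10, adjusted p = 0.0279). In the other 9 alternatives it stayed uncalled.

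Cnn1 (ENSMUSG00000001349, chr9:22099216-22109630) encodes calponin, an actin-binding protein that restrains the myosin motor. It was measured at 9.03, 5.68 and 8.96 CPM in the control libraries, 3.16, 8.94 and 2.86 CPM in the IMQ libraries, and 7.89, 11.8 and 14.5 CPM in the LYS libraries. IMQ library 2 was as high as the control libraries while the other two were below them, so the groups overlapped. By edgeR the log2 fold change was -0.68 (SE 0.43, adjusted p = 0.201) for IMQ against control and 1.28 (SE 0.48, adjusted p = 0.112) for LYS against IMQ. Without IMQ library 2 the first became a call (-1.38, adjusted p = 0.00877) and the second was 1.98, while the first was -0.41 without IMQ library 1 and -0.39 without IMQ library 3.

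Tagln (ENSMUSG00000032085, chr9:45929619-45936058) encodes transgelin, an actin cross-linking protein of smooth muscle, and its values are uncertain. It had 20, 11 and 18 reads in the control libraries, 1, 2 and 5 in the IMQ libraries and 6, 8 and 12 in the LYS libraries. The IMQ libraries were below all others, yet each had 5 reads or fewer, and the filter on low counts removed the gene from the IMQ comparisons. The log2 ratio of its mean CPM was -2.03 for IMQ against control and 1.44 for LYS against IMQ, with no test. By DESeq2, which kept it, the IMQ group was lower than control (log2 fold change -2.05, SE 0.88, adjusted p = 0.0417). Of its 1988 exonic bases, 1349 overlap the exons of Pcsk7 or Gm48529 on the other strand, and 58.3% of its windows of 50 bases occur in transcripts of these genes. The library kit does not mark strand, and how reads in such an overlap were assigned is not given in the sources used here, so reads of Tagln and of its antisense partners cannot be told apart. Gm48529 had 3 to 14 reads per library.

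Other actins and myosins did not all move with the smooth muscle forms. Of the 50-base windows of Acta2 and Myh11, 0.326% and 0.34% also occur in other genes of the same strand, among them Actg1 for Acta2, and Myh9 and Myh10 for Myh11. Actg2, the enteric smooth muscle actin, fell in the IMQ group (log2 fold change -1.93, adjusted p = 0.00457 by edgeR), and so did the skeletal Acta1 (-1.48, adjusted p = 0.00636) and the cardiac Actc1 (-3.56, adjusted p = 0.00317). The cytoskeletal Actg1 rose (0.64, adjusted p = 0.00719), though it was not called without TMM scaling (0.19, adjusted p = 0.272), and Actb was not called (-0.14, adjusted p = 0.478). Of the non-muscle myosins Myh10 fell (-2.09, adjusted p = 0.000285) and Myh9 was not called (-0.13, adjusted p = 0.41). Among relatives of calponin and transgelin, Cnn3 (-1.42, adjusted p = 4.34e-05) and Tagln2 (-1.02, adjusted p = 0.000431) fell and Cnn2 was not called (0.27, adjusted p = 0.0712). Tagln3 had 33, 42 and 35 reads in the control libraries, none in the IMQ libraries, and 0, 2 and 0 in the LYS libraries.

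**Figure D2:**
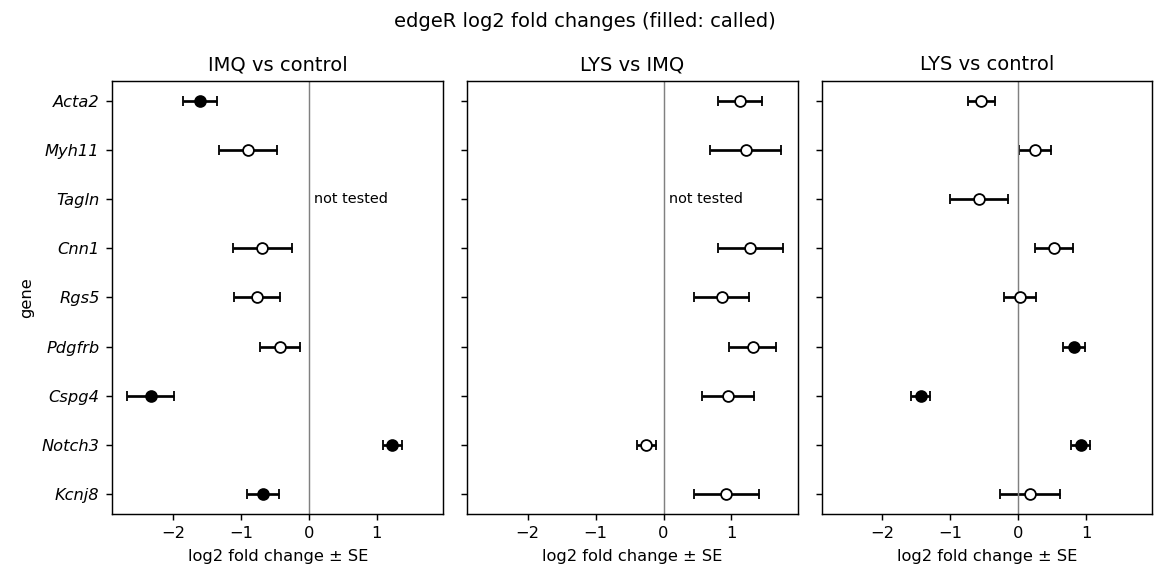
edgeR log2 fold changes (horizontal axis) with their SE for the 9 genes in the 3 comparisons; filled points passed the threshold and open points did not. Cspg4 lies lowest and Notch3 highest in the IMQ and control comparison, and all points but that of Notch3 lie right of 0 between the LYS and IMQ groups.

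Cspg4 (ENSMUSG00000032911, chr9:56865033-56899870) encodes the NG2 proteoglycan of the pericyte surface and was the most reduced of the 9 genes. Its levels were 65.8, 69.5 and 71.7 CPM in the control libraries, 20.4, 14.5 and 6.45 CPM in the IMQ libraries, and 22.1, 25.1 and 29.1 CPM in the LYS libraries. Every IMQ and LYS library was below every control library, and the LYS libraries were just above the IMQ libraries. It fell by 2.33 on the log2 scale in the IMQ group (SE 0.34, adjusted p = 0.000695 by edgeR), a control mean 5.02 times that of IMQ. It was also lower in the LYS group than in control, by a log2 fold change of -1.44 (SE 0.14, adjusted p = 0.000642). The LYS and IMQ groups differed by 0.95 (SE 0.38, adjusted p = 0.127), which was not called.

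Notch3 (ENSMUSG00000038146, chr17:32120820-32166852, reverse strand) encodes the Notch receptor of mural cells and was the only gene of the 9 to rise in the IMQ group. It stood at 91.3, 96.7 and 107 CPM in the control libraries, 206, 270 and 221 CPM in the IMQ libraries, and 200, 192 and 167 CPM in the LYS libraries. The control libraries were below all others, and the LYS libraries were below the IMQ libraries by a narrow margin. The rise was 2.34-fold in the IMQ group (log2 fold change 1.23, SE 0.14, adjusted p = 0.000206 by edgeR) and 1.90-fold in the LYS group (0.92, SE 0.14, adjusted p = 0.0035). Between LYS and IMQ the value was -0.25 (SE 0.14, adjusted p = 0.246), and without TMM scaling it changed sign to 0.01. NOTCH3 is also made by keratinocytes of the upper epidermis. The summed level of 6 keratinocyte markers was 5107 to 8575 CPM in the control libraries, 37810 to 56430 CPM in the IMQ libraries and 15950 to 30050 CPM in the LYS libraries, and its part in the rise of Notch3 was not tested. Of these 6 markers 5 were called higher in both groups than in control, and Krt15 was called lower (log2 fold changes -0.78 for IMQ and -1.57 for LYS). Of the 8089 exonic bases of Notch3, 488 overlap Gm17276 on the other strand, which had 1 to 9 reads per library.

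Pdgfrb (ENSMUSG00000024620, chr18:61045150-61085061) encodes the PDGF receptor beta through which mural cells are recruited. Its values are those of whole skin, and the part of other cells in them, such as the fibroblasts described below, was not tested. Its levels were 51.2, 62.1 and 56.0 CPM in the control libraries, 64.6, 34.4 and 26.8 CPM in the IMQ libraries, and 77.7, 107 and 114 CPM in the LYS libraries. The LYS libraries were above all others, and IMQ library 1 was above all controls while the other IMQ libraries were below them. By edgeR the LYS group was 1.77-fold higher than control (log2 fold change 0.82, SE 0.17, adjusted p = 0.01), a call that was lost when all 9 libraries were fitted together (adjusted p = 0.0529) or control library 1 was left out (adjusted p = 0.0642). Against IMQ the LYS group was a fitted 2.48 times as high, without a call (1.31, SE 0.34, adjusted p = 0.0641). The IMQ value against control was -0.43 (SE 0.30, adjusted p = 0.236), which became a call without IMQ library 1 (-0.88, adjusted p = 0.00152) and was -0.18 without IMQ library 3.

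Rgs5 (ENSMUSG00000026678, chr1:169655501-169695813) encodes a regulator of G-protein signalling that is a widely used pericyte marker. It stood at 183, 190 and 145 CPM in the control libraries, 165, 68.3 and 71.4 CPM in the IMQ libraries, and 116, 191 and 220 CPM in the LYS libraries. IMQ library 1 was within the control range, and LYS library 1 was below the control range. The IMQ value was -0.77 (SE 0.33, adjusted p = 0.0778 by edgeR), which became a call without IMQ library 1 (-1.30, adjusted p = 0.000169). Against control the LYS value was 0.03 (SE 0.24, adjusted p = 0.946), and its sign changed without TMM scaling (-0.09).

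Kcnj8 (ENSMUSG00000030247, chr6:142564837-142571614, reverse strand) encodes the pore of the vascular ATP-sensitive potassium channel. It was measured at 14.1, 17.8 and 10.9 CPM in the control libraries, 11.1, 7.89 and 7.77 CPM in the IMQ libraries, and 6.49, 15.9 and 25.7 CPM in the LYS libraries. The lowest control library and the highest IMQ library were nearly level, and the LYS libraries spanned the whole range. It fell by 0.68 on the log2 scale in the IMQ group (SE 0.24, adjusted p = 0.0357 by edgeR). The call was lost with all 9 libraries in one fit (adjusted p = 0.19), and when control library 1 (adjusted p = 0.0803), control library 2 (0.129), IMQ library 2 (0.115) or IMQ library 3 (0.101) was left out. Against control the LYS value was 0.17 (SE 0.44, adjusted p = 0.785), and -0.33 without LYS library 3.

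As FPKM, the order of the 9 genes in control skin was led by Acta2 at 92.4 ± 5.74 (SD, n = 3), followed by Rgs5 at 43.5 ± 4.53, Notch3 at 14 ± 1.66, Pdgfrb at 11.8 ± 0.996 and Myh11 at 10.3 ± 0.979. Cspg4 at 6.64 ± 0.486, Kcnj8 at 6.37 ± 1.30, Cnn1 at 3.33 ± 0.900 and Tagln at 0.455 ± 0.150 came after. The place of Tagln is uncertain in every group, because 1349 of its 1988 exonic bases overlap genes on the other strand. Neighbours in this order overlapped only for Pdgfrb with Myh11 and Cspg4 with Kcnj8. In the IMQ libraries Notch3 at 23.9 ± 2.20 FPKM, Acta2 at 22.5 ± 8.49 and Rgs5 at 19.3 ± 12.2 overlapped at the top. Cspg4 at 0.984 ± 0.563 had the place before Tagln, the last, but overlapped Cnn1 at 1.49 ± 0.947. Pdgfrb, Myh11, Kcnj8 and Cnn1 each overlapped the next gene as well, so the place of Cspg4 is not resolved. In the LYS libraries Acta2 was at 58.3 ± 18.9 FPKM, Rgs5 at 40.8 ± 14.4, Notch3 at 24.0 ± 1.22 and Pdgfrb at 19.1 ± 4.65. Each of these overlapped the next, so the LYS order is not resolved among them.

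**Figure D3:**
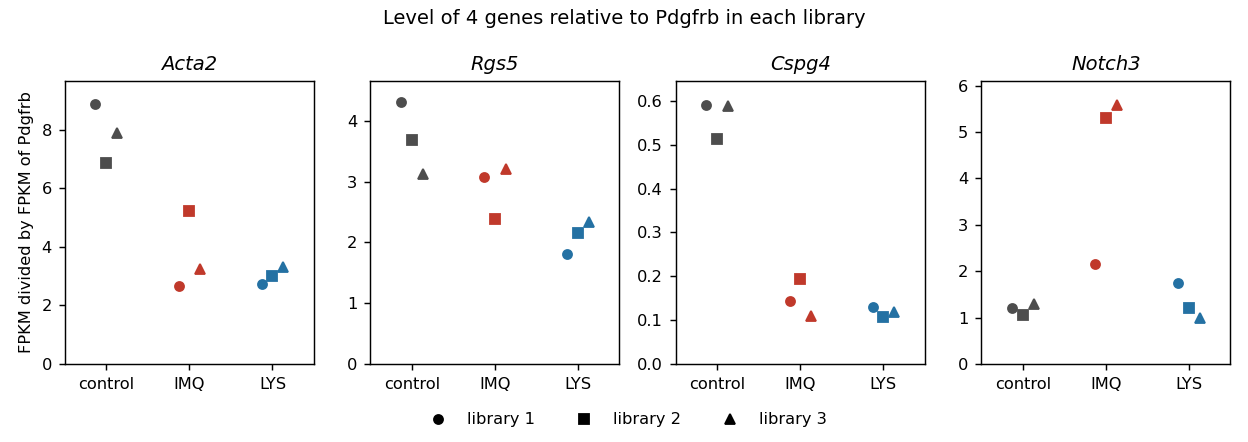
FPKM of Acta2, Rgs5, Cspg4 and Notch3 divided by that of Pdgfrb in the same library (vertical axes starting at 0), by group; each symbol is a library. The ratio of Cspg4 in the control libraries, 0.514 to 0.591, lies above those of all other libraries, and the ratio of Notch3 is highest in the 3 IMQ libraries.

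The mural genes did not all move in the same direction. Between IMQ and control 1 of the 5, Notch3, was above 0 and the other 4 were below 0. A ratio of 2 genes within a library does not depend on the scaling between libraries, and Pdgfrb was taken as the divisor after its values had been seen. The ratio of Cspg4 to Pdgfrb in FPKM was 0.514 to 0.591 in the control group, 0.110 to 0.193 in the IMQ group and 0.108 to 0.131 in the LYS group. Cspg4 was thus low relative to Pdgfrb in both treated groups, whose ranges overlapped. The ratio of Acta2 was 6.86 to 8.89, 2.65 to 5.24 and 2.74 to 3.31 in the same order, and that of Rgs5 was 3.12 to 4.31, 2.39 to 3.21 and 1.81 to 2.33. The ratio of Notch3 went from 1.06 to 1.30 in the control group up to 2.16 to 5.58 in the IMQ group, and was 0.995 to 1.74 in the LYS group. Over the 8 ratios, the groups did not overlap for 3 between IMQ and control, for 2 between LYS and IMQ and for 5 between LYS and control. Of the ratios of all tested genes to Pdgfrb, 45.7%, 67.2% and 64.5% did not overlap in the same comparisons, so all 3 shares of the members lie below the background. An exact two-sided permutation test of 3 against 3 libraries cannot give a p below 0.1, which each of these non-overlapping ratios reached (0.24 after Benjamini-Hochberg adjustment over 24 tests).

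Between the LYS and IMQ groups, 7 of the 8 tested genes had a positive log2 fold change, with a median over the 8 of 1.04 beside 0.04 over all genes. No gene was called by edgeR's quasi-likelihood test, whose smallest adjusted p over all genes was 0.0591, although 5435 genes, 4 of the 8 among them, had an unadjusted p under 0.05. In CPM the LYS libraries lay above the IMQ libraries without overlap for Acta2, Myh11, Pdgfrb and Cspg4, and below them for Notch3. Such non-overlap was found for 16.8% of all genes upward and 22.1% downward. DESeq2 called 3 of the genes higher, Acta2 (1.11, adjusted p = 0.0114), Cnn1 (1.25, adjusted p = 0.0449) and Pdgfrb (1.30, adjusted p = 0.00387), beside 13.3% of all genes called higher. With all 9 libraries in one edgeR fit, Acta2 (adjusted p = 0.0321) and Pdgfrb (adjusted p = 0.025) were called higher, beside 9.93% of all genes called higher and 18.5% called in either direction. Without IMQ library 1, Rgs5 and Pdgfrb were called higher, beside 6.8% of all genes called higher and 11.8% in either direction. Without LYS library 1, Acta2, Pdgfrb and Kcnj8 were called higher, beside 14.9% and 26.8%.

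In CPM the IMQ libraries lay below the control libraries without overlap for Acta2, Myh11 and Cspg4 of the 8 tested genes, beside 35.9% of all genes, and above them for Notch3, beside 34.1%. The LYS libraries lay above the control libraries for Pdgfrb and Notch3 (25.0% of all genes) and below them for Acta2 and Cspg4 (25.3%) of 9 genes. The IMQ and LYS comparisons with control share the control libraries, and the comparison of LYS with IMQ shares the IMQ libraries, so their values are not independent. The median log2 fold change of the 8 genes was -0.72 for IMQ against control, beside -0.06 over all genes, and that of the 9 genes was 0.17 for LYS against control, beside -0.01.

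**Figure D4:**
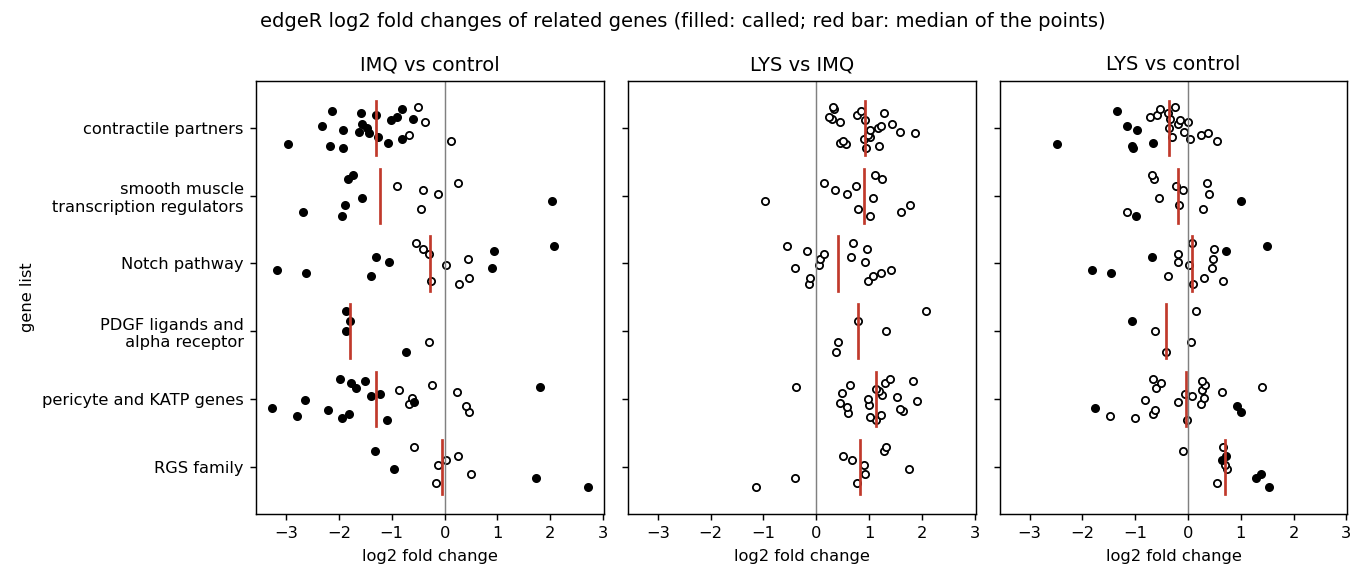
edgeR log2 fold changes (horizontal axis) of the tested genes of 6 related lists in the 3 comparisons; filled points were called, the red bar is the median of a list, and Adra1b is drawn at its bound for IMQ against control. In the IMQ and control comparison 50 of the 88 tested genes were called lower and 7 higher, beside 26.9% and 24.1% of all genes. The contractile partners lie almost all left of 0.

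The genes that work with the 9 were taken from 6 lists holding 90 genes. In the IMQ group 57 of the 88 tested were called, beside 51.0% of all tested genes. Of these 57, 50 were lower and 7 higher, and the median log2 fold change of the 88 was -0.93. Without TMM scaling the split was 60 lower and 5 higher, and over all genes it went from 4291 lower and 3854 higher to 6854 lower and 2390 higher. No related gene was called between LYS and IMQ by edgeR. An unadjusted p under 0.05 was found for 49 of 87, beside 5435 of all 15460 tested genes. DESeq2 called 38, of which 36 were higher, beside 22.8% of all genes called and 13.3% called higher. Against control, 23 of 88 were called in the LYS group, a share under the 28.0% of all genes, with 10 higher and 13 lower, and without TMM scaling 7 higher and 14 lower. Over all genes the latter split went from 2412 higher and 2064 lower to 1917 higher and 2706 lower. Without control library 1 the LYS count against control was 11, beside 15.8% of all genes called. It was 14 without control library 2 (18.0%) and 12 without LYS library 2 (17.9%). No called related gene changed direction under any alternative, while 13 of the 57 calls against control in the IMQ group and 16 of the 23 in the LYS group were lost under at least 1 of them. Of the LYS calls named below, those of Nexn, Csrp2, Hey2 and Pdgfd were lost without control library 1 (adjusted p 0.0512 to 0.0921 by edgeR). Each list count below stands beside the shares of all genes called. They were 26.9% lower and 24.1% higher for IMQ against control, and 12.9% lower and 15.1% higher for LYS against control.

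Of 24 partners of the contractile apparatus, 23 were tested and 19 fell in the IMQ group, none rose, and the median was -1.30. The largest falls were in Casq2, which binds calcium in the sarcoplasmic reticulum (23.9 ± 4.18 CPM in control and 3.03 ± 1.33 in IMQ, log2 fold change -2.97, adjusted p = 0.000131 by edgeR), and Nexn, an actin filament protein (-2.32, adjusted p = 0.000485). The myosin phosphatase subunit Ppp1r12b (-0.38, adjusted p = 0.265) and desmin, Des (0.12, adjusted p = 0.757), were not called. Casq2 and Des are also genes of striated muscle, and the summed level of 11 skeletal muscle markers was 11450 to 12690 CPM in the control libraries, 2143 to 5440 CPM in the IMQ libraries and 5178 to 9890 CPM in the LYS libraries, whose part in these values was not tested. Pln had too few reads to be tested, and 1785 of its 2759 exonic bases overlap genes on the other strand, so its level is uncertain. In the LYS group 7 partners were lower than control and none was higher, with a median of -0.36, and Casq2 (-2.47, adjusted p = 0.00115) and Nexn (-1.16, adjusted p = 0.0149) were among the 7.

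Of 12 regulators of smooth muscle transcription, 6 fell and 1 rose in the IMQ group, with a median of -1.23. Ebf1, a factor of perivascular and adipose cells, fell by 2.69 on the log2 scale (SE 0.33, adjusted p = 0.0003 by edgeR), and Csrp2, a cofactor of serum response factor, by 1.94 (adjusted p = 0.000438). Klf4, a repressor of the contractile genes that is also abundant in the upper epidermis, rose from 254.7 ± 26.9 to 1045 ± 187 CPM (2.03, adjusted p = 7.13e-05), moving with the keratinocyte sum given above, whose part was not tested. Srf itself had a log2 fold change of 0.26 (adjusted p = 0.0425), under the threshold on size, and its coactivator Myocd was at 1.29 ± 0.358 CPM in control and not called (-0.90, adjusted p = 0.328). In the LYS group Klf4 was higher than control (1.01, adjusted p = 0.00744) and Csrp2 lower (-0.98, adjusted p = 0.0138).

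Of 16 genes of the Notch pathway, 5 fell and 3 rose in the IMQ group, with a median of -0.27. Beside 26.9% lower and 24.1% higher over all genes, these counts lie near the background. Of the Notch target genes, Heyl fell from 34.8 ± 2.5 to 3.81 ± 2.5 CPM (log2 fold change -3.17, SE 0.39, adjusted p = 0.000293 by edgeR), as did Hey2 (-2.62, adjusted p = 0.000381) and Hey1 (-1.39, adjusted p = 0.00443). Heyl (-1.82, adjusted p = 0.00317) and Hey2 (-1.46, adjusted p = 0.0116) were lower in the LYS group than in control as well. The genes that rose were the receptor Notch2 (0.94, adjusted p = 0.000542), the ligand Jag1 (0.89, adjusted p = 0.00232) and the feedback gene Nrarp (2.08, adjusted p = 0.000366). Without TMM scaling Notch2 (0.49) and Jag1 (0.43) fell short of the threshold. Of the exonic bases of Nrarp, 79.4% overlap an antisense gene, so its value is uncertain. Hes1, another target, was not called (0.46, adjusted p = 0.0805).

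All 5 genes of the PDGF list, 4 ligands and the alpha receptor, had negative values in the IMQ group, and 4 fell. These were the alpha receptor Pdgfra, which marks fibroblasts (-1.87, adjusted p = 0.00117 by edgeR), and the ligand genes Pdgfc (-1.86, adjusted p = 0.000495), Pdgfd (-1.79, adjusted p = 0.00125) and Pdgfa (-0.73, adjusted p = 0.0042). The ligand of the Pdgfrb receptor that endothelium releases, Pdgfb, was at 26.6 ± 0.502 CPM in control and 21.6 ± 2.80 in IMQ and was not called (-0.30, adjusted p = 0.0927). In the LYS group only Pdgfd was called against control (-1.06, adjusted p = 0.023), and Pdgfra was at 0.15 (adjusted p = 0.578).

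Of 23 further pericyte and ATP-sensitive potassium channel genes, 22 were tested in the IMQ group, where 14 fell, 1 rose, and the median was -1.31, also with the gene near 0 put at its bound. That gene, Adra1b, an alpha-1 adrenoceptor, had 38, 36 and 17 reads in the control libraries and 0, 1 and 1 in the IMQ libraries. Angpt1, the angiopoietin that mural cells send to endothelium, fell by 3.27 on the log2 scale (SE 0.38, adjusted p = 0.000215 by edgeR) and was lower than control in the LYS group (-1.75, adjusted p = 0.00948). Abcc9, the regulatory subunit that pairs with the channel pore of Kcnj8, also fell (-1.08, adjusted p = 0.017), a call lost without IMQ library 2 (adjusted p = 0.0637) or control library 2 (adjusted p = 0.0501), whereas the relative of that pore, Kcnj11, was not called (-0.87, adjusted p = 0.0611). Ndufa4l2, a mitochondrial gene induced by hypoxia, rose (1.81, adjusted p = 0.000183), and Adra2a was not called (0.46, adjusted p = 0.194). The pericyte markers Vtn and Higd1b differed: Vtn fell (-1.99, adjusted p = 0.00326) and Higd1b was at 0.24 (adjusted p = 0.6).

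Among 10 relatives of Rgs5, 2 fell and 2 rose in the IMQ group, with a median of -0.05. Both counts lie under the background of 26.9% lower and 24.1% higher over all genes. Rgs3 (-1.31, adjusted p = 0.0027 by edgeR) and Rgs16 (-0.96, adjusted p = 0.0471) fell, and Rgs12 (1.73, adjusted p = 5.14e-05) and Rgs1, a gene of activated lymphocytes (2.72, adjusted p = 0.000865), rose. The call of Rgs16 was lost by DESeq2 (adjusted p = 0.0665) and without any of 5 libraries, control 1, 2 and 3 and IMQ 2 and 3 (adjusted p 0.0566 to 0.16). In the LYS group 5 of the 10 were higher than control and none lower, with a median of 0.71.

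**Figure D5:**
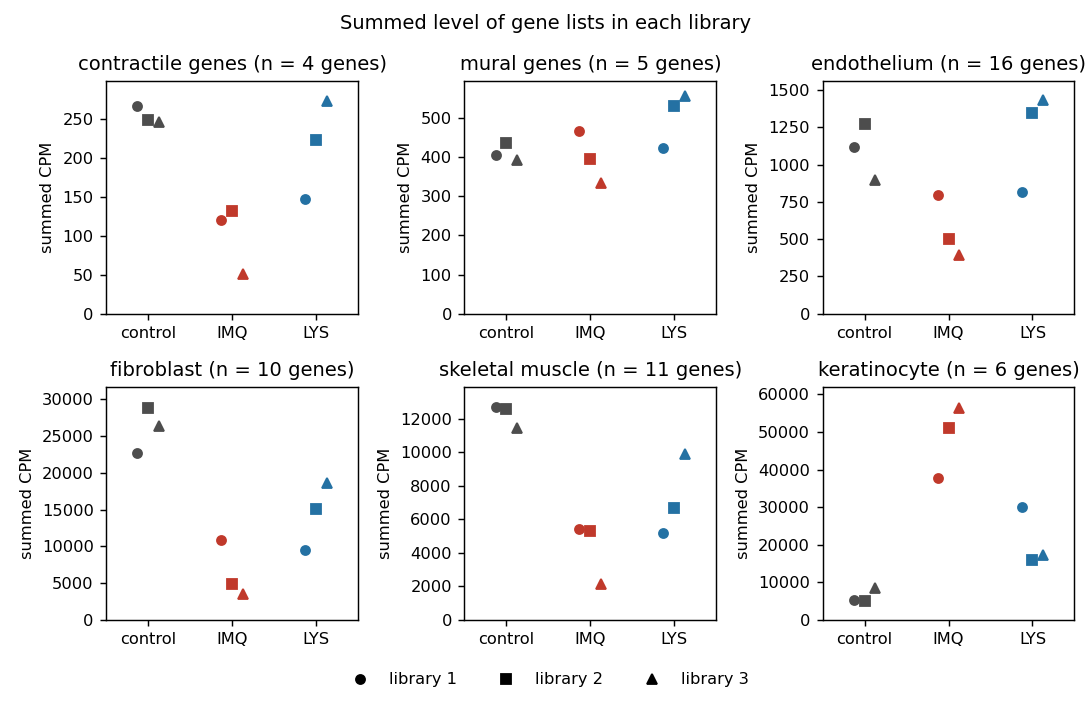
Summed CPM (vertical axes starting at 0) of the contractile genes, the mural genes and the marker lists of 4 other cell types in each library; each symbol is a library. The sums of the 5 mural genes overlap among the 3 groups, whereas the fibroblast sums of all IMQ and LYS libraries lie below those of the control libraries and the keratinocyte sums lie above them.

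Marker lists of other skin cells moved in the same comparisons. In the IMQ group 26.9% of all tested genes were called lower and 24.1% higher. The summed level of 16 endothelial markers was 897 to 1274 CPM in the control libraries, 393 to 798 CPM in the IMQ libraries and 816 to 1435 CPM in the LYS libraries, and 13 of the 16 fell in the IMQ group. That of 10 fibroblast markers was 22710 to 28880, 3553 to 10910 and 9454 to 18650 CPM in the same order, and 9 of the 10 fell. The sums of 6 myofibroblast markers were 1810 to 1875, 260 to 602 and 866 to 1377 CPM (4 fell), and those of 8 dermal papilla and sheath markers were 158 to 180, 48.8 to 98.5 and 80.0 to 154 CPM (6 fell and 1 rose). No marker of these lists was at 0 in all libraries. Within the IMQ group library 1 had the highest endothelial and fibroblast sums and the lowest keratinocyte sum, and it was also the highest of the 3 for Rgs5, Pdgfrb, Cspg4 and Kcnj8. Within the LYS group library 1 had the lowest endothelial and fibroblast sums and the highest keratinocyte sum, and was the lowest for 8 of the 9 genes, all but Notch3. The part of these other cells in the values of the 9 genes was not tested.

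The 4 contractile genes together summed to 246 to 267 CPM in the control libraries, 50.3 to 132 CPM in the IMQ libraries and 147 to 273 CPM in the LYS libraries, so the IMQ libraries lay below all others. The 5 mural genes summed to 391 to 436, 333 to 467 and 423 to 555 CPM, and the groups overlapped. Without Notch3, left out because it rose, the other 4 summed to 284 to 340, 112 to 261 and 223 to 388 CPM. The IMQ libraries lay below the control libraries in this sum. All 4 had negative log2 fold changes between IMQ and control, so a lower IMQ sum follows from that choice and is no separate result. Schwann cell markers (7 genes) summed to 590 to 714, 212 to 368 and 223 to 613 CPM, adipocyte markers (6 genes) to 2729 to 7823, 280 to 890 and 912 to 2160 CPM, and leukocyte markers (6 genes) to 859 to 1391, 21750 to 28920 and 8226 to 18240 CPM. Of the leukocyte sum in the IMQ group nearly all was S100a8 and S100a9, which keratinocytes of inflamed skin also make, while Cd3e rose, Ptprc (0.30) and Cd68 (-0.23) were not called and Lyz2 fell (-0.67, adjusted p = 0.0395 by edgeR).

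Genes with the most similar profile were found by the mean absolute difference of log2(CPM + 1), each centred at its own mean over the 9 libraries, among 12000 genes with a mean of at least 5 CPM. For Acta2 they were Cbx6 (0.10), Limch1 and Samd14, and for Myh11 they were Plxna4 (0.18), Npr1 and Nos3. For Cnn1 they were Tnfrsf14 (0.23), Fgf11 and Asap3, for Rgs5 Flt4 (0.10), Nynrin and Shank3, and for Pdgfrb Tmem200b (0.14), Mmp2 and Lrp1. For Cspg4 the tropomyosin gene Tpm1 came first (0.11), before Fkbp14 and Casc4, for Notch3 Slc11a2 (0.04), Slc35f6 and Kmt2b, and for Kcnj8 Pknox2 (0.12), Disp1 and Nudt16. Psmb9, H2-Q6 and Myo9a came first for Tagln, whose levels near 0 leave this scale little range. Within the 9 genes the closest pair was Rgs5 with Kcnj8 (0.30) and the most distant pair was Cspg4 with Notch3 (1.32). The libraries fall into 3 groups, so these are descriptions of shared differences between groups.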

How the data were processed

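Total RNA of 9 back skin libraries was extracted with Trizol and libraries were made with a NEBNext Ultra kit. The authors deposited 1 table of 29205 Ensembl genes with raw read counts and FPKM per library. The submitters' processing notes list GRCm38, HISAT2 and HTSeq 0.13.5, without their roles. The strand setting is not given in the sources used here. The deposited FPKM values could be recomputed from the counts with 1 length per gene, and were used only to compare levels between genes. All columns were matched to samples.

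Each comparison was fitted on its 6 libraries with edgeR 4.0.16 in R 4.3.3 (TMM, filterByExpr, quasi-likelihood test, Benjamini-Hochberg adjustment over all tested genes, no replicate block), with calls made at 0.05 for the adjusted p and 0.58 for the size of the log2 fold change. The code was tested on simulated data. No library was a repeat of another, since chi-square per degree of freedom was 16.9 to 100 between libraries of a group. Counts carry no molecular identifiers. The 9 genes and the 17 gene lists were chosen with earlier results of these data known. From each related list the 2 tested genes with the highest and the 2 with the lowest log2 fold change in IMQ against control were named, and all genes of a list of 5, as were 12 paralogs of the 9 genes (among them Actg2 and Kcnj11). Others (Hey1, Jag1, Hes1, Myocd, Pln, Krt15, the leukocyte markers, Abcc9, Vtn and Higd1b) were named after their values were seen, the last 3 being partners or markers of the 9 genes. Gene positions are from GENCODE M21 and site sequences from RefSeq (GRCm38.p6). Alternatives were DESeq2 1.42.0, other scalings, no filter, all 9 libraries in one fit, a stricter fold change, a replicate block and leaving out each library. Figures were drawn with matplotlib 3.10.9.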

Additional observations from a re-analysis of the deposited data

How the results depend on the processing

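Under 12 alternatives per comparison, the log2 fold changes of the 9 genes were counted as keeping direction and call in 271 of 311 refits. They gained a call in 25, lost it in 7 and changed sign in 8. The 271 include 8 refits of Tagln between IMQ and control and 3 between LYS and IMQ, where the main fit made no test. In those 8 the adjusted p was 0.0127 to 0.0696 by edgeR or DESeq2, so some of them passed the threshold. Acta2, Cspg4 and Notch3 were called between IMQ and control under every alternative run. The count of the 9 genes called there (4) became 7 without TMM scaling (57.9% of all genes called) and 7 without a filter on low counts (31.4%). It was 3 to 6 with 1 library left out (45.0% to 54.2%). Between LYS and IMQ the count of 0 became 3 by DESeq2 (22.8% of all genes), 2 with all 9 libraries in one fit (18.5%) and 2 without a filter (8.83%). It was 0 to 3 when 1 library was left out (0.0% to 26.8%). Related genes called there went from 0 to 38, 33 and 27 under the same 3 settings, and to 0 to 48 with 1 library left out, beside the same shares of all genes. Between LYS and control the count of 3 became 1 at an absolute log2 fold change over 1 (18.2% of all genes), where related genes went from 23 to 14. With 1 library left out these counts ranged from 2 to 4 and from 11 to 31, beside 15.8% to 30.8% of all genes. Without TMM scaling Notch3 changed sign between LYS and IMQ (0.0055), and Rgs5 between LYS and control (-0.090). With 1 library left out, LYS against control ranged from -0.00031 to 0.48 for Myh11, -0.16 to 0.26 for Rgs5 and -0.33 to 0.56 for Kcnj8. The cause was not tested. Replicate numbers are shared between groups. Deviations of same-numbered libraries correlated from -0.46 to 0.2, and those of differently numbered libraries from -0.295 to 0.47. These values gave no sign of pairing by number, but with 3 libraries per group they cannot exclude it. With a replicate block the 9 genes had 6 calls between IMQ and control, Myh11 and Rgs5 being added, beside 50.4% of all genes. They had 0 between LYS and IMQ (0.0%) and 3 between LYS and control (19.5%), and Rgs5 changed sign in the last (-0.011). Tagln had 1 to 20 reads per library, too few for a test in 2 of the comparisons.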
